A study of Mus musculus with 8 samples.

Results

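The 10 genes Hspa5, Hsp90b1, Hyou1, Dnajb9, Dnajb11, Dnajc3, Sdf2l1, Manf, Creld2 and Sil1 encode BiP, Grp94 and the co-chaperones that work with BiP in the lumen of the endoplasmic reticulum (ER). All probes that bear one of these symbols were taken, which gave 22 probes among the 56605 on the array. Of these, 21 passed the filter on dim probes (40001 of all probes did, for 19922 gene symbols), and each gene is described by its brightest probe. That probe was well above background on all 8 arrays for all 10 genes. The probe that did not pass was a Sil1 probe that was above background on 0 arrays.

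BiP, the Hsp70 of the ER, binds unfolded stretches of newly made proteins and releases them in a cycle driven by ATP. J-domain proteins such as Dnajb9, Dnajb11 and Dnajc3 start ATP hydrolysis by BiP, and Sil1 and Hyou1 exchange the bound nucleotide so that the client is let go. Grp94 is the Hsp90 of the ER, and many of these genes are known targets of the transcription factors that are switched on when unfolded proteins build up.

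RNA came from the dentate gyrus, the hippocampal region that forms new neurons in adult life, of male C57BL/6 mice aged 8 to 9 weeks. Controls carried Derlin-1flox/flox or Derlin-2flox/flox without Cre, so that both copies of Derl1 or Derl2 were flanked by loxP sites. The corresponding KO mice carried the same floxed copies together with Cre recombinase under the nestin promoter, which is active in neural progenitors during development, so that neurons and macroglia are the main cells targeted and microglia are not. Each of the 4 groups (control and KO of the Derlin-1 line, control and KO of the Derlin-2 line) had 2 arrays. Both Derlins sit in the ER membrane and take part in ER-associated degradation, and the comparison asks whether deleting either one is accompanied by a different level of ER chaperone mRNA. Groups were taken from the titles, because the genotype given for KO samples is only that of the floxed allele. No label tells whether the arrays of a group came from separate mice, so the p-values measure only the spread between these arrays.

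Every array had 67.6% to 70.8% of its probes well above background and 0 saturated spots. Correlations ranged from 0.987 to 0.995 within a group, from 0.988 to 0.993 for KO arrays against their own controls, and from 0.965 to 0.985 between the lines. Each line was hybridized on its own slide, with the controls at the first positions and the KO samples at the later ones. Line and slide therefore cannot be told apart, and within a line neither can genotype and position on the slide. The brightest Derl2 probe read 11.35 and 11.22 (log2 signal) in the Derlin-2 controls and 10.63 and 10.66 in the KO, with a log2 difference of -0.64 ± 0.097 (SE). The brightest Derl1 probe read 10.85 and 10.76 in the Derlin-1 controls and 10.57 and 10.66 in the KO, a log2 difference of -0.19 ± 0.10, while the other Derl1 probe differed by 0.46 in the opposite direction. The Derl1 signal therefore does not settle the labels of the libraries labelled Derlin-1 KO. Whether the probes lie within the deleted exons was not tested.

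Promoter sequence is shown for the genes in which the ER stress response element was found, since this element is the known binding site through which chaperone genes respond to unfolded proteins. RefSeq promoter windows of build GRCm38.p6, from 250 bases before to 50 bases after the transcription start, were matched for 7 of the 10 genes (Hspa5, Hsp90b1, Dnajb9, Dnajb11, Dnajc3, Sdf2l1 and Creld2), and no window was used for Hyou1, Manf and Sil1. The element was searched on both strands as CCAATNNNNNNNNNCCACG and its shorter form, ERSE-II, as ATTGGNCCACG. The spellings share the letters CCACG, and neither contains the other. The first was found in 4 of the 7 windows, against 0.119% of all 32851 promoter windows of the same length. The element was chosen because chaperone genes are known to respond through it, so this count is not an independent test. In the stretches below, each written 5′ to 3′ on the strand of the gene, capitals mark the matches with 20 bases on either side.
Hspa5: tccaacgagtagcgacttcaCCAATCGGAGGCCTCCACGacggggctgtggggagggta
Hsp90b1: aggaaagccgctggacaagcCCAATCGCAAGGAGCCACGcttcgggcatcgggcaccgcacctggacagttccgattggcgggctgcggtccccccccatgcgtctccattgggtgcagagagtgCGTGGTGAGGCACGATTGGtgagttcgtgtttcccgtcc
Dnajc3: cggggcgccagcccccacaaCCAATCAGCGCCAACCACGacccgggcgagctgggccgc
Creld2: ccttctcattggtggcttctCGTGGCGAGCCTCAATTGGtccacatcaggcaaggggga

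The Hspa5 stretch lies at chr2:34772005-34772063 on the plus strand, with its match starting 65 bases before the transcription start. That of Hsp90b1 lies at chr10:86705513-86705676 on the minus strand and holds 2 matches, the first starting 212 bases before the start and the second, nearer to it, reading on the opposite strand. The Dnajc3 stretch is at chr14:118937807-118937865 on the plus strand, with the match starting 105 bases before the start. The Creld2 stretch is at chr15:88819500-88819558 on the plus strand, and its match, starting 126 bases before the start, reads on the opposite strand. All of these stretches lie upstream of the first exon. Dnajb11 had only the shorter form, ATTGGCCCACG at chr16:22857852-22857862 on the plus strand, which starts at base 8 of the transcript and thus lies in its first exon. That form was found in 1 of the 7 windows and in 0.0365% of all windows. Neither spelling was found in the windows of Dnajb9 and Sdf2l1, which says only that these letters are not there. A match is a description of sequence, and binding was not measured here.

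All 10 genes were higher in Derlin-1 KO than in Derlin-1 control, with log2 differences from 0.14 (Dnajc3) to 0.70 (Sdf2l1) and a median of 0.29. In Derlin-2 KO, 9 of 10 were higher and Sil1 was lower, with a range from -0.038 to 0.48 and a median of 0.12. Over all genes measured, the median difference was -0.014 for Derlin-1 and 0.015 for Derlin-2, and 46.1% and 54.3% of genes, respectively, had a positive difference. Hspa5, Hyou1, Dnajc3 and Manf were above their controls on both KO arrays in both lines. The signals of Hsp90b1, Dnajb9, Dnajb11, Sdf2l1 and Creld2 overlapped between KO and control in the Derlin-2 line. In bulk tissue, a change in the number of cells of a type and a change in RNA per cell cannot be told apart.

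None of these differences passed the test across all probes. With limma and Benjamini-Hochberg adjustment at 0.05, 0 of the 10 genes passed in the Derlin-1 line or in the Derlin-2 line. Over all probes, 0 of 39981 tested passed in the former (0%) and 18 of 39812 in the latter (0.0452%). At an unadjusted p under 0.05, 5 genes were higher in Derlin-1 KO (Hspa5, Hsp90b1, Hyou1, Sdf2l1 and Manf) and 4 in Derlin-2 KO (Hspa5, Hyou1, Dnajc3 and Manf), against 2.62% of all genes in either line. The KO arrays were both above the 2 controls for 10 of 10 genes in the Derlin-1 line, against 17.2% of all genes, and for 4 of 10 in the Derlin-2 line, against 19.2%. The adjusted p was 0.9997 for all 10 genes in the Derlin-1 line, and ranged upwards from 0.587 in the Derlin-2 line.

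**Figure D1:**
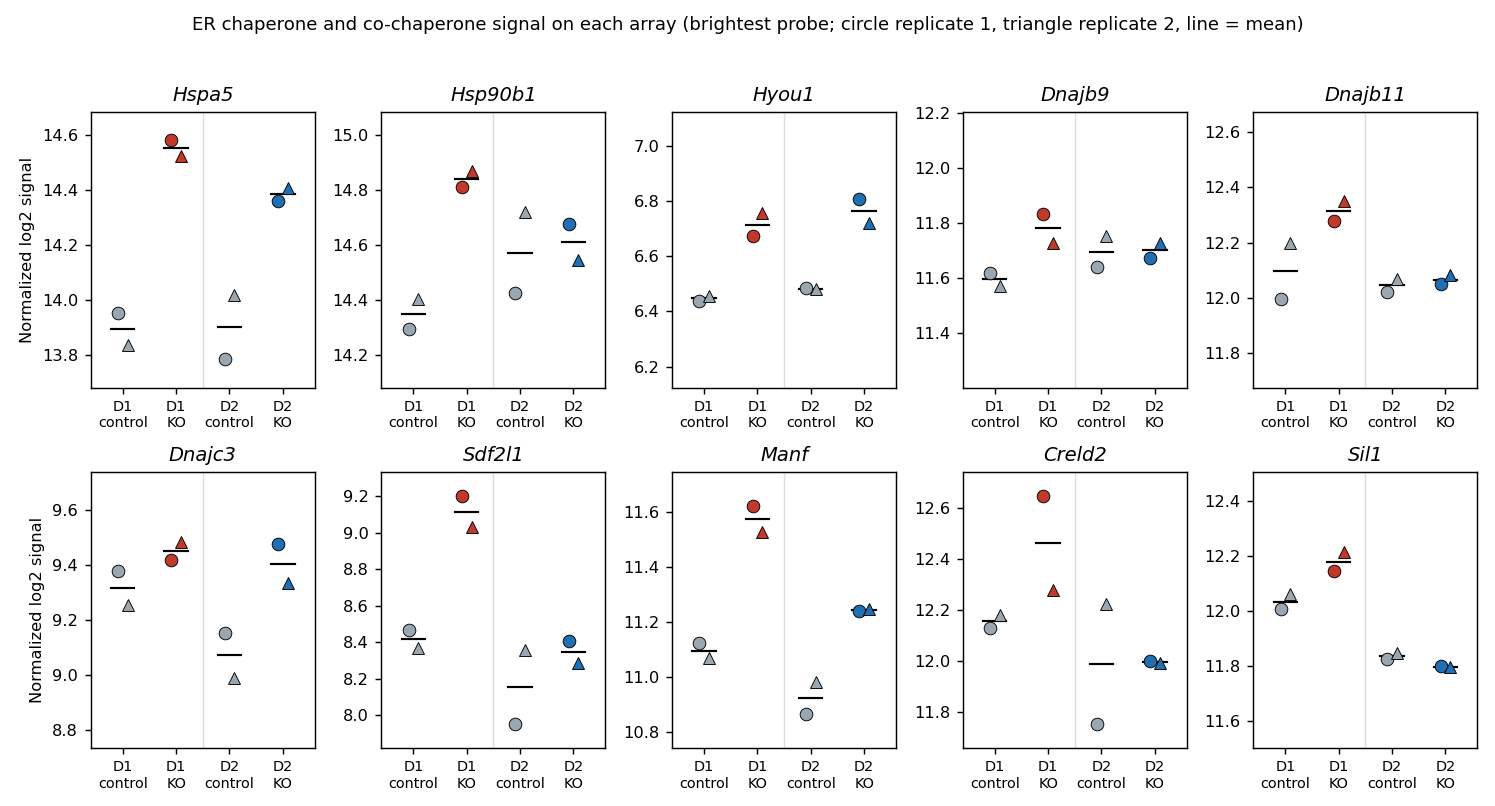
Normalized log2 signal (vertical axis, a separate scale in each panel) of the brightest probe of the 10 genes on each of the 8 arrays. Circles are replicate 1, triangles are replicate 2 and horizontal lines are means of 2 arrays. D1 and D2 stand for the Derlin-1 and Derlin-2 lines. Both D1 KO points lie above both D1 control points in all 10 panels, and both D2 KO points lie above both D2 controls for Hspa5, Hyou1, Dnajc3 and Manf.

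Hspa5, which encodes BiP itself, had log2 signals of 13.95 and 13.84 in the Derlin-1 controls and 14.58 and 14.52 in the Derlin-1 KO. In the Derlin-2 line the values were 13.79 and 14.02 in the controls and 14.36 and 14.41 in the KO. The KO arrays were above the controls in both lines, with no overlap. The log2 difference was 0.66 ± 0.12 (SE) in the Derlin-1 line, a 1.58-fold higher level, and 0.48 ± 0.12 in the Derlin-2 line, a 1.40-fold higher level. The adjusted p was 0.9997 and 0.587, respectively. The effect of the Derlin-1 line minus that of the Derlin-2 line was 0.18, with a 95% confidence interval from -0.23 to 0.58. The means of the Derlin-1 and Derlin-2 controls were 13.89 ± 0.084 and 13.90 ± 0.17 (SD, n = 2 each), so the baselines did not differ beyond their spread. The other two Hspa5 probes gave differences of 0.59 and 0.62 for Derlin-1 and of 0.48 and 0.50 for Derlin-2, and their KO arrays were also above their controls in both lines.

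Hsp90b1, which encodes Grp94, is a chaperone for a limited set of secreted and membrane proteins such as Toll-like receptors and integrins. Its log2 signals were 14.30 and 14.40 in the Derlin-1 controls and 14.81 and 14.87 in the Derlin-1 KO. In the Derlin-2 line the controls read 14.42 and 14.72 and the KO read 14.67 and 14.54. The groups were separated in the former, whereas both Derlin-2 KO values lay between their controls. The log2 difference was 0.49 ± 0.13 in the Derlin-1 line, a 1.40-fold higher level, and 0.038 ± 0.13 in the Derlin-2 line. The difference between these effects was 0.45 ± 0.19, with a 95% confidence interval from -0.0024 to 0.91 and an adjusted p of 0.844.

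Hyou1 encodes Grp170, a large Hsp70 relative that acts as a nucleotide exchange factor for BiP. Its brightest probe read 6.44 and 6.46 in the Derlin-1 controls and 6.67 and 6.76 in the Derlin-1 KO. In the Derlin-2 line the controls read 6.49 and 6.48 and the KO read 6.81 and 6.72. KO arrays were above controls in both lines, by 0.27 ± 0.094 and 0.28 ± 0.094 on the log2 scale, and the difference between the lines was -0.014 (95% confidence interval from -0.34 to 0.31). With normexp background correction the differences were 0.12 and 0.18, and with scaling to the 75th percentile that of Derlin-1 was 0.41. The other Hyou1 probes did not all point the same way. In Derlin-1 KO, 1 of them had a difference of -0.037, and in the Derlin-2 line another, which was above background on 5 arrays, had a difference of -0.20.

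Sil1 is the second nucleotide exchange factor, and loss of it is known to cause ataxia with Purkinje cell loss. Its brightest probe read 12.01 and 12.06 in the Derlin-1 controls and 12.14 and 12.21 in the Derlin-1 KO. The Derlin-2 controls read 11.83 and 11.85 and the Derlin-2 KO read 11.80 and 11.80. Both KO arrays were above the controls in the Derlin-1 line and below them in the Derlin-2 line, by 0.14 ± 0.091 and by -0.038 ± 0.091. The difference between the lines was 0.18 (95% confidence interval from -0.13 to 0.50; adjusted p = 0.915). A further Sil1 probe had a difference of -0.090 for Derlin-1 and -0.20 for Derlin-2, and the last had 0.042 and -0.64.

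Among the J-domain co-chaperones, Dnajb9 and Dnajb11 differed by at most 0.22 on the log2 scale at their brightest probes. Dnajb9 (ERdj4), which also holds the stress sensor Ire1 in its inactive state, read 11.62 and 11.57 in the Derlin-1 controls and 11.83 and 11.73 in the Derlin-1 KO. The Derlin-2 controls read 11.64 and 11.75 and the KO read 11.67 and 11.73. At this probe the groups were separated in the Derlin-1 line (0.19 ± 0.10) and overlapped in the Derlin-2 line (0.0047 ± 0.10). The other Dnajb9 probe showed the reverse. Its groups overlapped in the Derlin-1 line (0.12 ± 0.20), and both KO arrays were above both controls in the Derlin-2 line (0.17 ± 0.20). Dnajb11 (ERdj3), a co-chaperone that is secreted together with misfolded clients, read 11.995 and 12.197 in the Derlin-1 controls and 12.28 and 12.35 in the KO. In the Derlin-2 line it read 12.02 and 12.07 in the controls and 12.05 and 12.08 in the KO. The differences were 0.22 ± 0.11 and 0.020 ± 0.11, and the groups overlapped only in the Derlin-2 line. A dim Dnajb11 probe, above background on 3 arrays, differed by 1.34 ± 0.48 in the Derlin-2 line, whereas the other bright Dnajb11 probe differed by 0.016.

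Dnajc3 (p58IPK), a J-domain protein that was first known as an inhibitor of the kinase PKR, had a larger difference in the Derlin-2 line than in the Derlin-1 line. It read 9.38 and 9.25 in the Derlin-1 controls and 9.42 and 9.48 in the KO. The Derlin-2 controls read 9.15 and 8.99 and the KO read 9.47 and 9.33. KO arrays were above controls in both lines, by 0.14 ± 0.11 and 0.33 ± 0.11. The difference between the lines was -0.20 (95% confidence interval from -0.59 to 0.20), so the order of the effects was not resolved.

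Sdf2l1 forms a complex with Dnajb11 that keeps client proteins from aggregating. It read 8.47 and 8.37 in the Derlin-1 controls and 9.20 and 9.03 in the Derlin-1 KO. The Derlin-2 controls read 7.95 and 8.36 and the KO read 8.41 and 8.29. The groups were separated in the Derlin-1 line and overlapped in the Derlin-2 line, where the controls were far apart. The difference was 0.70 ± 0.16 in the Derlin-1 line, a 1.62-fold higher level, and 0.19 ± 0.16 in the Derlin-2 line. The effect in the Derlin-1 line exceeded that in the Derlin-2 line by 0.50 ± 0.22, with a 95% confidence interval from -0.048 to 1.05 and an adjusted p of 0.851.

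Manf, a small secreted ER protein that binds BiP and stabilizes its ADP-bound form, read 11.12 and 11.07 in the Derlin-1 controls and 11.62 and 11.53 in the Derlin-1 KO. The Derlin-2 controls read 10.86 and 10.98 and the KO read 11.24 and 11.25. KO arrays were above controls in both lines, by 0.48 ± 0.099 (1.39-fold) and 0.32 ± 0.099 (1.25-fold). The other Manf probe had differences of 0.49 and 0.44, again with no overlap in either line. The interval of the difference between the lines ran from -0.18 to 0.50 around 0.16.

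Creld2, a disulfide isomerase-like protein induced by ER stress, had the largest SE among the 10 brightest probes. It read 12.13 and 12.18 in the Derlin-1 controls and 12.65 and 12.28 in the KO. The Derlin-2 controls read 11.75 and 12.22, on either side of the KO arrays at 11.9995 and 11.9924. The differences were 0.31 ± 0.19 and 0.0078 ± 0.19, and the interval of the difference between the lines ran from -0.37 to 0.96.

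**Figure D2:**
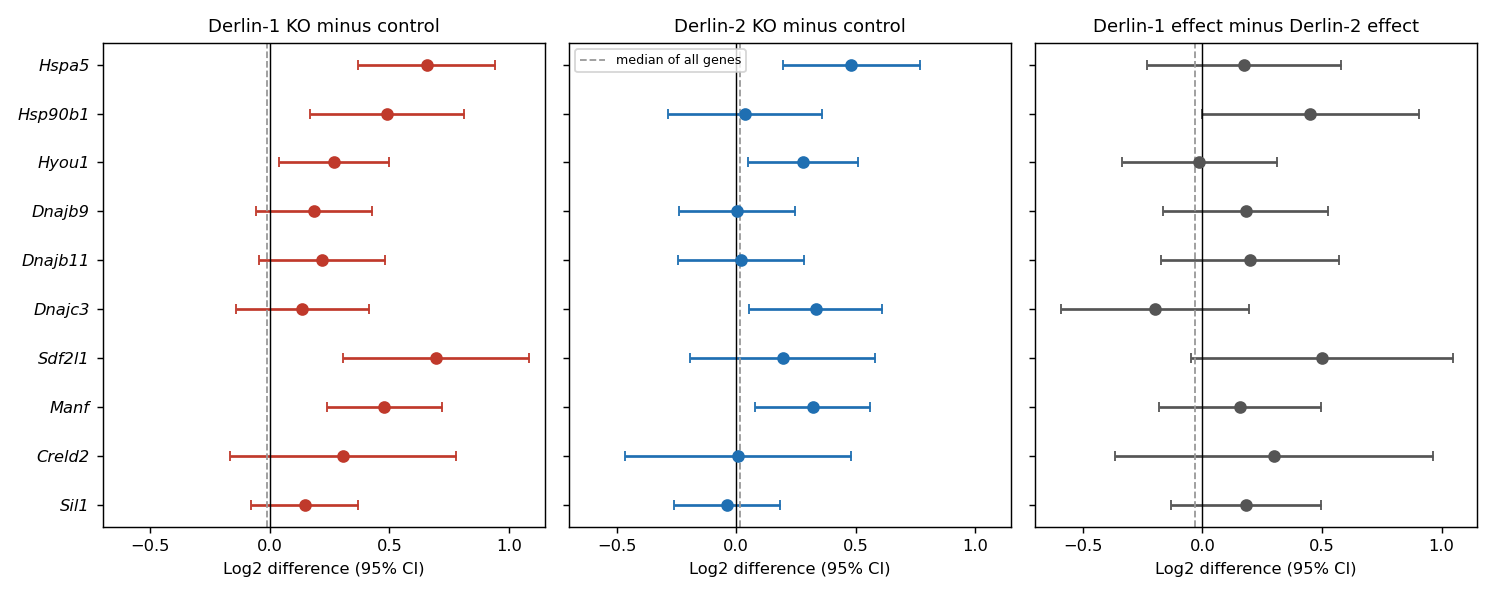
Log2 difference of KO minus control for the 10 genes in the Derlin-1 line (left) and the Derlin-2 line (middle), and the Derlin-1 effect minus the Derlin-2 effect (right). Points are limma estimates from 2 arrays per group, bars are unadjusted 95% confidence intervals and the dashed line is the median of all genes. The right panel shows 8 positive and 2 negative differences (Hyou1 and Dnajc3), and all 10 intervals include 0.

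The effects of the lines could not be distinguished at this number of arrays. The Derlin-1 effect was the larger one for 8 of 10 genes, with a median difference of 0.18, but 0 of the 10 passed the test of the difference (3 of 39810 probes did, 0.00754%) and 0 had an unadjusted p under 0.05. The intervals of Sdf2l1, Creld2 and Hsp90b1 reached furthest, to 1.05, 0.96 and 0.91. Of the 19 probes that were above background on all 8 arrays, 17 were higher in Derlin-1 KO and 16 in Derlin-2 KO. The KO arrays lay wholly above the controls for 15 and 9 of them. Over all genes by their brightest probe, that share was 17.2% and 19.2%, and it was not computed over all probes. Several of these probes belong to the same gene, so their counts are not separate from the counts by gene.

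**Figure D3:**
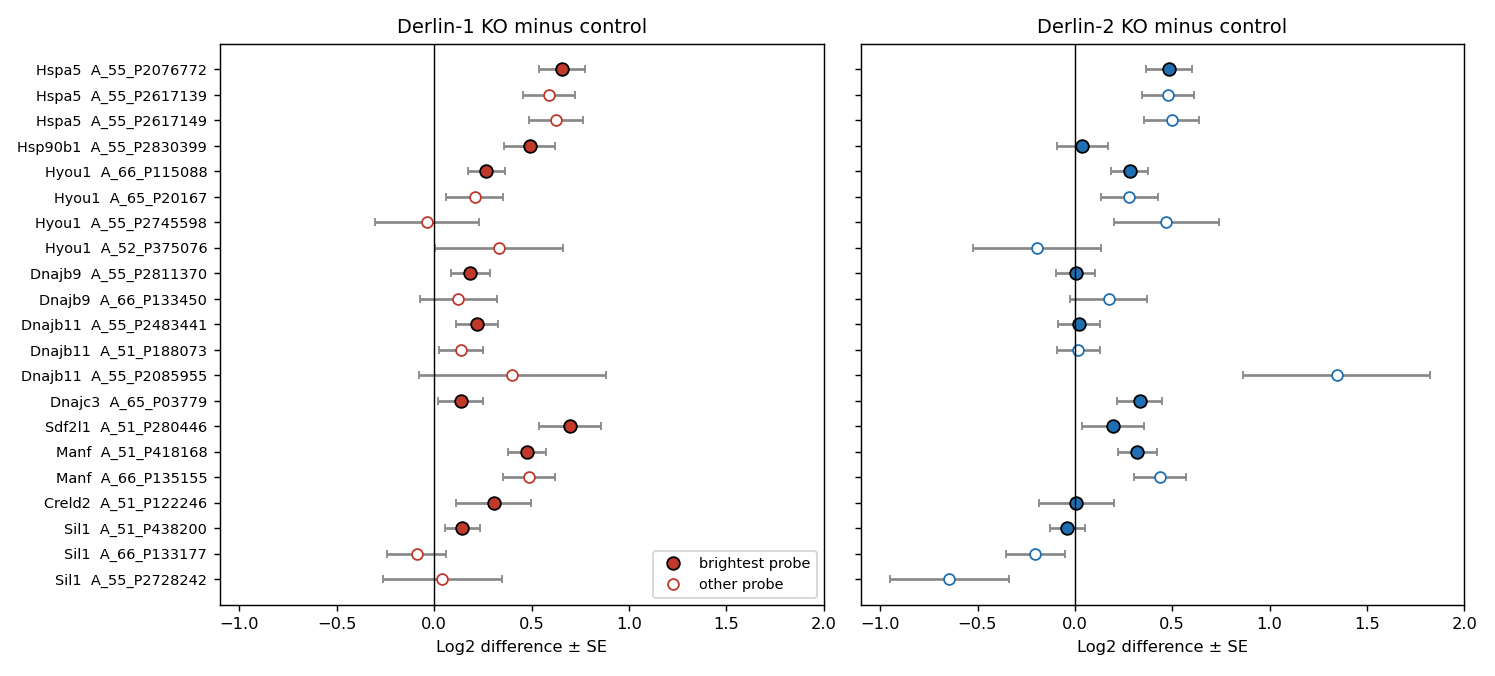
Log2 difference of KO minus control for all 21 probes of the 10 genes, with the SE of the fit as bars, in the Derlin-1 line (left) and Derlin-2 line (right). Filled points are the brightest probe of a gene and open points are its other probes. The 3 Hspa5 probes lie between 0.59 and 0.66 on the left and between 0.48 and 0.50 on the right, while the dim Dnajb11 probe at 1.34 stands apart.

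The 10 genes were also read array by array. Relative to the mean of the Derlin-1 controls, all 10 genes were above it on both KO arrays, with medians of 0.35 and 0.28. On the Derlin-2 KO arrays 8 of 10 genes were above the mean of their controls, with medians of 0.18 and 0.085. The Derlin-2 controls themselves differed, since 8 of 10 genes were lower on replicate 1 than on replicate 2. Without Derlin-2 control replicate 1, the Derlin-2 median was -0.0045 and Hsp90b1, Dnajb9, Dnajb11, Sdf2l1 and Creld2 had negative differences, from -0.23 (Creld2) to -0.0024 (Dnajb11). Without Derlin-2 control replicate 2, the median was 0.25 and the number of genes with KO arrays above all controls was 9. Without Derlin-2 KO replicate 1 the number of genes higher at an unadjusted p under 0.05 went from 4 to 1 and Hsp90b1 differed by -0.027; without Derlin-2 KO replicate 2 or Derlin-2 control replicate 1 it was 2, and without the former Dnajb9 differed by -0.022. It was also 1 with the deposited log2 values and 1 with each line fitted alone. In the Derlin-1 line that number went from 5 to 3 without Derlin-1 KO replicate 2, and all 10 genes remained higher under every alternative run. Single arrays moved some of them, since Creld2 differed by 0.12 without Derlin-1 KO replicate 1 and by 0.49 without Derlin-1 KO replicate 2, Dnajb11 by 0.12 without Derlin-1 control replicate 1, and Dnajc3 by 0.073 without Derlin-1 control replicate 2. Hspa5, Hyou1, Dnajc3 and Manf kept a positive difference in the Derlin-2 line under every alternative run.

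Hspa5 was compared with all other genes by the correlation of signals over the 8 arrays, after the mean of each line was subtracted, among 18056 genes above background on all arrays. These points share the same arrays and the same KO and control labels, so r is given as a description. Manf was the closest of all genes (r = 0.994), and Hyou1 (r = 0.914), Sdf2l1 (0.912), Hsp90b1 (0.791) and Dnajb9 (0.781) followed among the 10 genes. Dnajc3 (0.688), Dnajb11 (0.643), Creld2 (0.612) and Sil1 (0.541) were less alike. The 5 closest genes outside the group were Gm33945 (0.992), Celf6, an RNA-binding protein (0.990), B930078G14Rik (0.986), Fads3, of the fatty acid desaturase family (0.976), and Klf12, a transcription factor (0.972).

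Other groups of the folding machinery were described by the same measures, with 0 genes past the threshold in each line and each group. The disulfide isomerases and lectin chaperones, which form disulfide bonds and retain glycoproteins in the ER until folded, had 12 of 14 measured genes higher in Derlin-1 KO and 9 of 14 in Derlin-2 KO. Over all genes, 46.1% and 54.3% had a positive difference. The medians of the disulfide isomerases and lectin chaperones were 0.19 and 0.060. Both KO arrays were above both controls for 10 and 3 of these genes, respectively, against 17.2% and 19.2% of all genes. Pdia6 read 14.40 and 14.38 in the Derlin-1 controls against 14.95 and 14.94 in the KO, and 14.13 and 13.98 against 14.42 and 14.58 in the Derlin-2 line. Its groups were separated in both lines, by 0.56 ± 0.11 and 0.45 ± 0.11. Calr (calreticulin) was separated only in the Derlin-1 line, with 12.95 and 13.18 against 13.59 and 13.75, and differed by 0.61 ± 0.13 and 0.076 ± 0.13. The test of that difference between the lines gave an adjusted p of 0.806. Canx (calnexin) differed by 0.37 ± 0.089 and 0.13 ± 0.089.

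The ER stress sensors and transcription factors had 6 of 9 genes higher in Derlin-1 KO and 4 of 9 in Derlin-2 KO, with medians of 0.016 and -0.014. Xbp1, the transcription factor that Ire1 activates by splicing, differed by 0.34 ± 0.12 and 0.29 ± 0.12, Atf6b by -0.26 and -0.24, and Eif2ak3 (the sensor PERK) by 0.15 and 0.18. Each of them had KO arrays wholly on one side of the controls in both lines, but these genes were named for their small p. In the list of 9, KO arrays were above both controls for 3 genes (Derlin-1) and 2 genes (Derlin-2), against 17.2% and 19.2% of all genes. They were below both controls for 2 and 1, and that share was not computed over all genes. Splicing of Xbp1 was not measured here. Among 15 other partners of Hsp70 and Hsp90 in the ER, 7 were higher in Derlin-1 KO and 10 in Derlin-2 KO, with medians of -0.0059 and 0.026. These included Sec63 (0.21 and 0.12), the J-domain protein of the translocon, Cdnf (-0.25 and -0.39), a relative of Manf, and Ficd (-0.21 and 0.065), the enzyme that AMPylates BiP.

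The chaperones of cytosol and mitochondria, relatives of the 10 genes that do not act in the ER, had 8 of 15 genes higher in Derlin-1 KO and 10 of 15 in Derlin-2 KO. Their medians were 0.0098 and 0.047. Hspa1a differed by 0.20 and 0.097 and Hspa1b by 0.17 and 0.27; these genes are near-identical copies, so their probes may share signal. Hsp90aa1 differed by -0.17 and 0.090. The differences between the groups of genes were not tested.

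**Figure D4:**
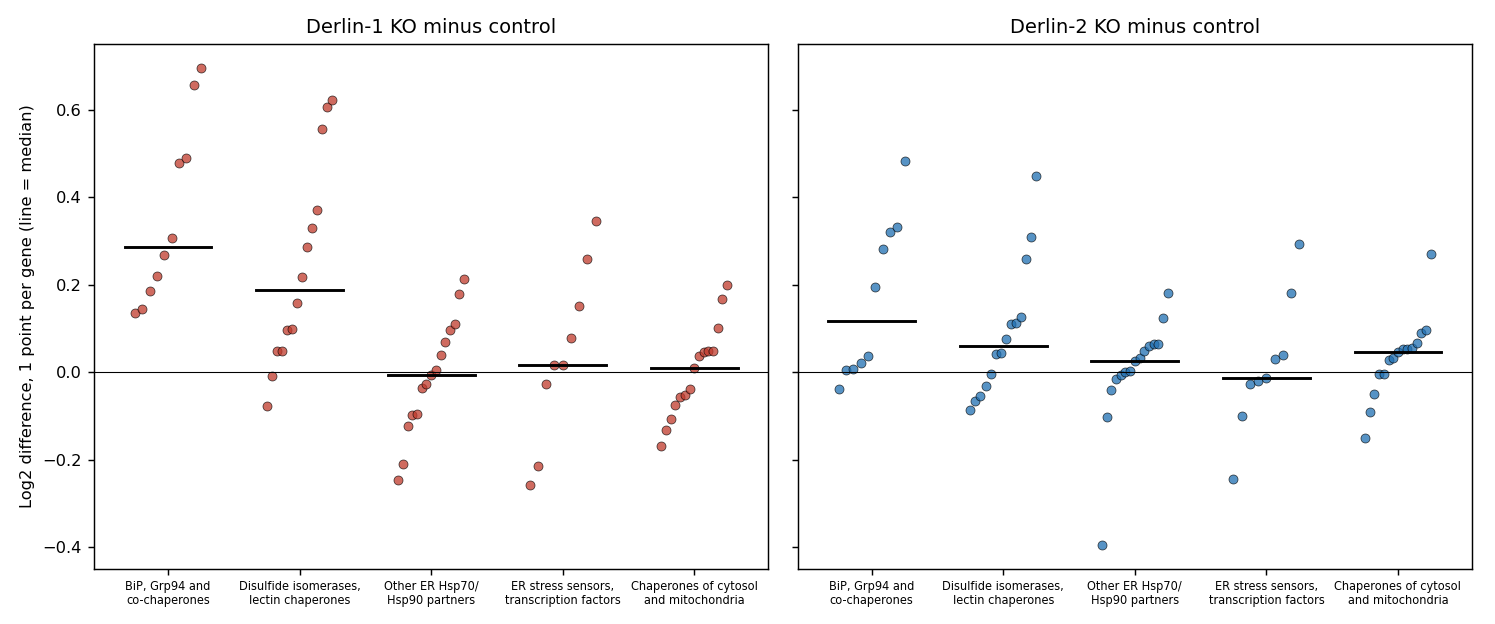
Log2 difference of KO minus control, 1 point per gene by its brightest probe, for the 10 genes and 4 other groups of chaperones and stress factors in the Derlin-1 line (left) and the Derlin-2 line (right). Horizontal bars are medians, which for the 10 genes stood at 0.29 and 0.12 and for the disulfide isomerases and lectin chaperones at 0.19 and 0.060.

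Markers of other cell types were read on the same arrays, as sums of linear normalized signal over each list. All 8 granule neuron markers, including Prox1, were above background on every array. The sums of those 8 markers overlapped between Derlin-1 KO (46590 to 57305) and control (49566 to 65777), and were 39486 to 39806 in Derlin-2 KO against 40052 to 40486 in its controls. In the Derlin-1 line 5 of these 8 markers were lower, with a median of -0.18, and 3 were higher, among them Calb1 (0.12) and Prox1 (0.087). Plk5 differed by -1.0003 and C1ql2 by -0.53, both with KO arrays below both controls. These 2 had an unadjusted p under 0.05, as did 845 of 19909 genes in either direction in that line. The share of all genes with KO arrays below both controls was not computed for either line. The sum of 5 microglia markers was lower in Derlin-1 KO, at 22803 to 24013 against 25872 to 26985 in the controls, with 5 of 5 lower. The sum of 5 interneuron markers was higher in Derlin-1 KO (73997 to 83989 against 61779 to 64783, 4 of 5 higher) and lower in Derlin-2 KO (79013 to 79196 against 90995 to 96710, 4 of 5 lower). Sst, the brightest of the 5 and thus the largest part of the sum, differed by 0.38 and -0.33. Pvalb differed by 0.038 and 0.054, and Vip by -0.20 and -0.31. The sum of 6 choroid plexus markers, an epithelium rich in secretory proteins, was 1616 to 1744 in Derlin-1 KO and 1413 to 1572 in its controls. Of these markers 5 of 6 were higher, with Ttr differing by 0.93 ± 0.88. Kl, the brightest of the 6 on the Derlin-1 arrays, differed by -0.25, with both KO arrays below both controls. The choroid plexus sum overlapped in the Derlin-2 line, at 2180 to 4878 in KO and 1936 to 4402 in controls. Endothelial marker sums were higher in KO in both lines, at 8633 to 8899 against 8440 to 8512 (3 of 5 markers higher) and at 8701 to 9046 against 7899 to 8563 (4 of 5 higher). Pecam1 went the other way (-0.13 and -0.14), with both KO arrays below both controls in both lines. In each line 1 of 5 markers had both KO arrays above both controls. Astrocyte marker sums were higher in Derlin-1 KO, at 33859 to 34571 against 32423 to 33505 (3 of 5 higher), and overlapped in the Derlin-2 line. The markers disagreed in the Derlin-1 line, where their median difference was 0.0016. Gfap differed by 0.31 there, whereas Aldh1l1 (-0.15) and Aqp4 (-0.080) had both KO arrays below both controls. Blood marker sums overlapped in the Derlin-1 line and were lower in Derlin-2 KO, at 40248 to 40693 against 42910 to 49301. By marker, 3 of 3 blood genes were lower in either line, with medians of -0.65 (Derlin-1) and -0.10 (Derlin-2). The KO arrays were below both controls for 2 of 3 and 1 of 3 of them, respectively. Sums of CA pyramidal neuron and oligodendrocyte markers overlapped in both lines. By marker, 6 of 8 CA genes were higher in Derlin-1 KO (median 0.24) and 4 of 8 in Derlin-2 KO (median -0.016). For oligodendrocytes, 1 of 5 and 3 of 5 were higher, with medians of -0.037 and 0.049. The part of these cell types in the chaperone values was not tested.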

How the data were processed

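Total RNA (150 ng per sample) was labelled with Cy3 and hybridized to 1-colour Agilent SurePrint G3 mouse arrays. The deposited scanner files, made with Agilent Feature Extraction version 10.7.1.1 per the labels, hold spot intensity after subtraction of the background and spatial detrending by the authors' scanner software. The authors' deposited tables hold log2 values normalized in GeneSpring, used here only as an alternative, and fold changes of the authors, which were not used.

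Signals of 59305 gene spots were set to at least 1, converted to log2 and brought to common quantiles over the 8 arrays. Spots flagged as outliers were then left out, and spots of a probe were averaged. The order of these steps was chosen after values under other orders had been seen, to match an earlier processing of these data. Probes were kept when well above background on both arrays of at least 1 group. A gene was described by its brightest kept probe. limma (version 3.58.1, R version 4.3.3) fitted 4 group means to the 8 arrays, with 4 residual and 2.07 prior degrees of freedom. The tests, two-sided, were of KO minus control for either line and of Derlin-1 effect minus Derlin-2 effect, with Benjamini-Hochberg adjustment over all probes. SE and 95% confidence intervals are those of the fit. The smallest p of an exact test at 2 against 2 arrays is 0.333, and the number of arrays limits the precision. Symbols are as the array's annotation gives them.

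The genes and lists were chosen with earlier results of these data known. Named were all 10 genes, the targeted genes, the 5 genes most correlated with Hspa5, and from each list the 3 genes with the smallest p in either line. Alternatives covered scaling, background correction, filters, deposited values, each line alone, replicate numbers, probe choice, the order of steps and leaving out each array. The fit was checked on simulated data. The files used here hold no mean spot signal, so normexp was run on the median signal in its place.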

Additional observations from a re-analysis of the deposited data

Results flagged for a closer look

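At its brightest probe, Sil1, the nucleotide exchange factor, was above both controls on both Derlin-1 KO arrays and below both controls on both Derlin-2 KO arrays. The log2 differences were 0.14 ± 0.091 and -0.038 ± 0.091. In the Derlin-1 line, 17.2% of all genes had both KO arrays above both controls. The share below both controls in the Derlin-2 line was not computed, nor was the share with opposite directions in the lines. The other kept Sil1 probes differed by -0.090 and 0.042 in the Derlin-1 line, with KO and control overlapping. In the Derlin-2 line they differed by -0.20 and -0.64. At the brightest probe, the Derlin-1 effect minus the Derlin-2 effect was 0.183 on the log2 scale (limma adjusted p = 0.915). This difference between the lines did not pass the test. Across the alternatives it ranged from 0.141 to 0.328.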

How the results depend on the processing

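Under the 15 alternatives run for each line and the 17 run for the difference between the lines, 0 of the 10 genes passed the threshold. Log2 differences in the Derlin-1 line stayed positive for all 10 genes but moved by over 1.5 times for 5: Hyou1 (0.267) was 0.117 with normexp and 0.409 with scaling to the 75th percentile, Sil1 (0.145) was 0.032 with the mean over probes, and with 1 array left out Creld2 reached 0.121 and 0.490, Dnajb11 0.118 and Dnajc3 0.073. With the mean over probes, both KO arrays were above both controls for 9 genes in place of 10. The Derlin-1 median (0.287) was 0.344 with scaling to the 75th percentile, 0.324 with the deposited values and 0.269 to 0.349 with 1 array left out, and its count at an unadjusted p under 0.05 was 3 to 5 with 1 array left out. The Derlin-2 count of 4 was 1 with the deposited values, 1 with each line fitted alone and 1 to 3 with 1 array left out. The Derlin-2 median (0.116) was 0.201 with the mean over the probes of a gene and -0.0045 to 0.247 with 1 array left out, where the number of genes with both KO arrays above all controls ranged from 4 to 9. Signs turned in the Derlin-2 line with 1 array left out, with ranges of -0.109 to 0.184 for Hsp90b1, -0.051 to 0.060 for Dnajb9, -0.0024 to 0.043 for Dnajb11, -0.0066 to 0.395 for Sdf2l1 and -0.227 to 0.243 for Creld2. With flagged spots left out before normalization, an order of steps tried after seeing the data, Dnajb9 was -0.0023 and Creld2 -0.00050 in the Derlin-2 line. The difference between the lines turned for Hyou1, at 0.163 with scaling to the 75th percentile and -0.0585 to 0.031 with 1 array left out, and for Dnajb11, at -0.208 with the mean over probes. The cause was not tested, apart from the arrays left out. Deviations of same-numbered samples from their group means correlated at 0.268 (Derlin-1) and -0.098 (Derlin-2) over 2 pairs. The labels name nothing that same-numbered samples share, and 2 pairs are too few to decide whether the numbers pair them. With the replicate block, 4 genes (Derlin-1) and 3 genes (Derlin-2) had an unadjusted p under 0.05, and over all probes the calls went from 18 to 0 in the Derlin-2 line and from 3 to 0 in the difference between the lines. Normexp used the median spot signal. With 1 array left out, the lone array of a group was assumed to vary like the other groups.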
